A study of Drosophila melanogaster with 3 samples.

Results

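The 9 genes described here are 8 genes of glycolysis and lactate production (Pgi, Pfk, Tpi, Gapdh1, Gapdh2, Pgk, Eno and Ldh) and ERR, a nuclear receptor gene that regulates them. They were chosen by name, with earlier results of these data known. They are 9 of the 13968 protein-coding genes annotated on the chromosome arms studied. A gene was counted as bound when the summit (the highest point) of a peak lay in its body or within 1000 bp of it. The samples were whole Drosophila melanogaster pupae of the strain snoo-MiMIC, in which an eGFP exon inside an intron of snoo gives a Snoo-eGFP fusion protein. Chromatin sheared by sonication was precipitated with an anti-GFP antibody and sequenced (ChIP-seq), in 1 group of 3 biological replicates numbered 3, 5 and 6, each of pooled male and female animals of unknown age. All 3 carry the same insertion. The samples hold neither an untagged strain nor another stage, and the control alignment the authors used was not analysed here. Signal from whole animals is an average over tissues and cannot be assigned to a cell type.

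Glycolysis breaks glucose down to pyruvate. Its upper steps spend ATP to make triose phosphates, its lower steps, from glyceraldehyde-3-phosphate dehydrogenase to pyruvate kinase, return ATP and NADH, and lactate dehydrogenase then turns pyruvate into lactate and regenerates NAD+. In Drosophila embryos and larvae, ERR is known to switch on glycolytic genes and Ldh. Snoo belongs to the Ski and Sno family of corepressors, which act with Smad proteins downstream of TGF-beta and BMP signals.

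Snoo-eGFP peaks were found at 5 of the 9 genes, Gapdh2, Pgk, Eno, Ldh and ERR, with 11 summits in all, and at none of Pgi, Pfk, Tpi and Gapdh1. The peaks are those of the authors' list of 6633 regions selected by the irreproducible discovery rate (IDR), a measure of how well the ranks of peaks repeat between replicates. All 11 summits had the same signal and rank in the authors' longer list of candidates from the pooled replicates. At these genes, inclusion thus followed pooled signal. A listed peak need not repeat in each replicate, since 3681 of the 6633 had a match among the strongest 6633 regions of all 3. Over all protein-coding genes, 31.5% had such a summit. Among genes as long as the 9 genes (1480 to 7718 bp) the share was 32.4%. A share over 9 genes is coarse, and it was not tested. Signal is the value that the authors' peak caller gave each peak for its strength, and over the list it ran from 128 to 4785.0 with a median of 222. Gapdh2, Eno, Ldh and Pgk each had a summit of signal over 1000, a limit that 2.23% of protein-coding genes reached. That limit was set after the data were seen, and the comparison was not tested. The Pgk summit over this limit lay nearer the start of another gene, Bacc.

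The bases under the strongest summits are shown for Ldh, Gapdh2, Pgk and Eno, the genes of signal over 1000, because they show how rich in A and T these places were and which of them hold a Smad box. Each window reaches 100 bp to either side of the summit on build dm6 and is read 5′ to 3′ along the gene, in lower case from the RefSeq assembly. Capitals mark the Smad box GTCT, or AGAC where it lies on the other strand. The Ldh window is chr3L:6262758-6262958 on the minus strand, the Gapdh2 window chrX:15867880-15868080 on the plus strand and the Pgk window chr2L:2751918-2752118 on the minus strand. For Eno the intronic bases chr2L:1727881-1727988 on the minus strand are shown, since the rest of its window is an exon.
Ldh: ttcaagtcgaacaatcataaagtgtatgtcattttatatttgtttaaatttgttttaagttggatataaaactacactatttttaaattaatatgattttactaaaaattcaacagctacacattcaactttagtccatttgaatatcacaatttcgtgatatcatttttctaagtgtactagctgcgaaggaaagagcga
Gapdh2: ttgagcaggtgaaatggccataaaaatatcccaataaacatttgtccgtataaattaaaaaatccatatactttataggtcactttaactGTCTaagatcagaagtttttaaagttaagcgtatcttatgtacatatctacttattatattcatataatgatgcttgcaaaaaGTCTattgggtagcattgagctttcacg
Pgk: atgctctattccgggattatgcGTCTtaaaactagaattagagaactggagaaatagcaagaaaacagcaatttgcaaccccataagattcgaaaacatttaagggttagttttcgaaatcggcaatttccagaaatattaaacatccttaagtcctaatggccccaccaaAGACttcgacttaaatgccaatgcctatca
Eno: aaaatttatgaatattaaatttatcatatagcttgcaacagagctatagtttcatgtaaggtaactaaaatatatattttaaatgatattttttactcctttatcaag

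G and C made up 26.4% of the Ldh window, and only 5.74% of the windows of all IDR summits had less. The Gapdh2 window had 29.9% and the full Eno window 32.3%, both under the median of 35.8% over all 6633 windows (quartiles 31.3% and 42.3%). The Pgk window had 37.3% and that of the strongest ERR summit 38.3%, both above it. Over the 231 windows of signal over 1000 the median was 34.3% (quartiles 30.3% and 38.8%). The Ldh window held no Smad box, whereas the Gapdh2, Pgk and full Eno windows held 2 each. In Eno both lay downstream of the summit in the exon that is not shown, 35 and 57 bases along the gene.

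All values that follow are placed on the genes by the Ensembl annotation of the same build. Pgi, glucose-6-phosphate isomerase (FBgn0003074, 2R 8910900 to 8914069, minus strand), had no IDR summit. Its strongest summit in the authors' list of 30000 candidate regions from the pooled replicates, which includes background by design, had a signal of 104 at rank 8394, 23 bp upstream of its start. The replicates' own candidate lists, of 30000 regions each, put the strongest Pgi summit at signals of 35.5, 34.0 and 78.6 in replicates 3, 5 and 6, at ranks 7467, 9325 and 4642. Replicate 6 alone placed it among its strongest 6633 regions, the length of the IDR list, and in replicate 5 the summit was 529 bp upstream, not at the start.

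Pfk, phosphofructokinase, the main control point of the pathway (FBgn0003071, 2R 10109740 to 10117457, plus strand), had a strongest pooled candidate of signal 102 at rank 8544, in its 5′ UTR 54 bp past an annotated start. Replicate 3 had a summit in the same place (signal 46.1, rank 5281), which was among its strongest 6633 regions. In replicates 5 and 6 the strongest summit lay downstream of the gene, at signals of 25.5 and 53.5 and ranks 13018 and 7256. The replicates therefore did not place their strongest Pfk summit alike.

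Tpi, triose-phosphate isomerase (FBgn0086355, 3R 30132981 to 30134599, minus strand), had no pooled candidate at all. Replicate 6 alone listed a region there, 225 bp upstream of the start, with a signal of 51.7 at rank 7549. Of the 9 genes, 8 had a pooled candidate summit, against 54.8% of protein-coding genes.

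The pair of glyceraldehyde-3-phosphate dehydrogenase genes, whose enzymes catalyse the NADH-yielding step, differed. Gapdh1 (FBgn0001091, 2R 7791901 to 7793380, minus strand) had no IDR summit, and its strongest pooled candidate, of signal 99.5 at rank 8758, lay downstream of the gene. In replicates 3, 5 and 6 its strongest summits, also downstream, had signals of 33.0, 24.0 and 32.0. None of them was among the strongest 6633 regions of its replicate.

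Gapdh2 (FBgn0001092, X 15868145 to 15869661, plus strand) had the strongest peak of the 9 genes, with a signal of 1906.8 at rank 44 of the IDR list. The peak spans X 15867752 to 15868224, and its summit lay 165 bp upstream of the start, in the window shown above. Signals in the replicates' own lists were 377, 582 and 946 in replicates 3, 5 and 6, at ranks 54, 44 and 49. The rank was thus nearly alike in all 3, and the summits lay 128, 152 and 165 bp upstream.

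Because signal is comparable only within a list, each replicate's value was also divided by the median signal of the strongest 6633 regions of that replicate (63.0, 71.1 and 104 in replicates 3, 5 and 6). This relative signal was 5.98, 8.18 and 9.07 at Gapdh2, or 7.75 ± 1.59 (SD, n = 3). Over the 6097 IDR summits found in every replicate within 150 bp, the median coefficient of variation of the relative signal was 27.3%.

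**Figure D1:**
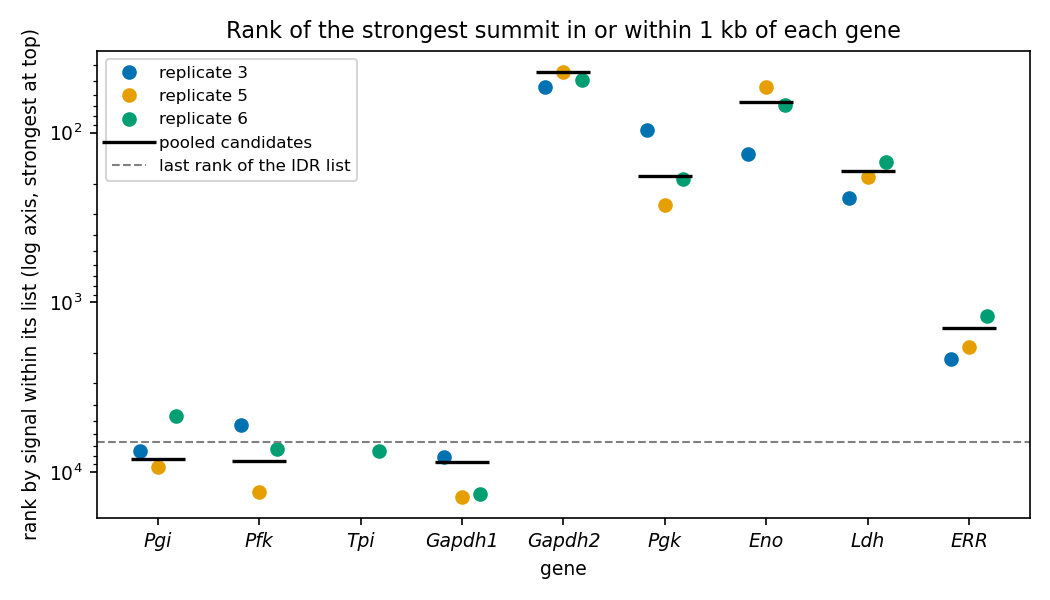
Rank of the strongest summit in or within 1000 bp of each of the 9 genes, in pathway order with ERR last. The vertical axis is logarithmic with the strongest rank at the top, points are replicates 3, 5 and 6, black bars are the pooled candidates and the dashed line is rank 6633. Gapdh2, Pgk, Eno, Ldh and ERR lie above the line in every replicate, and Tpi has a point in replicate 6 only.

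Pgk, phosphoglycerate kinase, which makes ATP (FBgn0250906, 2L 2746880 to 2753068, minus strand), carried 5 of the 11 summits, spread along a gene with 5 annotated starts. Its strongest, of signal 1113.4 at rank 180 (2L 2751796 to 2752338), lay in an intron 1050 bp past the outermost start and 1029 bp upstream of the next one. The replicates gave signals of 310, 288 and 529 there, at ranks 96, 267 and 189, and relative signals of 4.92, 4.06 and 5.07 (4.68 ± 0.546, SD, n = 3). Replicate 3 ranked this peak highest of the 3. Each replicate also listed another summit in the same interval, with signals of 146, 191 and 276 at ranks 720, 677 and 776, which is not in the IDR list.

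The next summit of Pgk, of signal 495 at rank 1000 (2L 2748501 to 2748919), lay 242 bp upstream of the innermost start, in sequence that is 5′ UTR in longer transcripts. It had signals of 124, 143 and 252 in replicates 3, 5 and 6, with a relative signal of 2.13 ± 0.243 (SD, n = 3). The other 3 summits of Pgk were weaker and repeated less well. The summit 139 bp past the outermost start had a pooled signal of 203 at rank 3740, and replicates 5 and 6 gave 49.2 and 95.3. Replicate 3 had no summit within 150 bp of it, but it listed one of signal 65.3 at rank 3167, 108 bp upstream of the same start. The summit 4138 bp past that start (signal 163, rank 4995) was not matched in replicate 5, and the others gave 8.91 and 94.8. The summit 2332 bp past it (signal 154, rank 5337) had 8.39, 28.5 and 102 in replicates 3, 5 and 6, and it is the weakest summit of the 11. For these last 2 summits replicate 6 alone had a match among its strongest 6633 regions. The IDR list ended at a signal of 128, and the strongest candidates of Pgi, Pfk and Gapdh1 were at 81.1%, 79.6% and 77.8% of that value.

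Eno, enolase, which makes phosphoenolpyruvate (FBgn0000579, 2L 1724768 to 1729636, minus strand), had its strong peak at an internal start and not at the outermost of its 3. The peak (2L 1727616 to 1728251) had a signal of 1629.7 at rank 66, with the summit in an intron 171 bp upstream of the internal start. Signals in replicates 3, 5 and 6 were 279, 531 and 805, at ranks 134, 54 and 69, and relative signals were 4.44, 7.47 and 7.72 (6.54 ± 1.83, SD, n = 3). By rank and by relative signal the peak was lowest in replicate 3. The summit positions agreed closely, at 175, 164 and 171 bp upstream.

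Upstream of the outermost Eno start, by 201 bp, was a much weaker summit of signal 246 at rank 2879. Its relative signals of 1.00, 0.875 and 0.921 in replicates 3, 5 and 6 placed it near the median of the strong regions in each (0.932 ± 0.0635, SD, n = 3). Its place varied more than that of the strong peak, with 137 bp between the outermost replicate summits against 11 bp. Over all IDR summits found in every replicate the median of this spread was 49 bp.

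Ldh, lactate dehydrogenase (FBgn0001258, 3L 6259105 to 6262694, minus strand), had a lone IDR summit, of signal 1139.3 at rank 168, in a peak at 3L 6262658 to 6263118. It lay 164 bp upstream of the outermost of 3 annotated starts, and no IDR summit lay inside the gene. Signals in replicates 3, 5 and 6 were 229, 329 and 587, at ranks 244, 183 and 149. The relative signals of 3.64, 4.63 and 5.62 (4.63 ± 0.991, SD, n = 3) had replicate 3 lowest and replicate 6 highest, as at Gapdh2 and Eno. The summits lay 181, 193 and 167 bp upstream, all within 29 bp of the IDR summit.

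ERR, the nuclear receptor gene (FBgn0035849, 3L 8183361 to 8186671, minus strand), had a weaker strongest peak than each of the 4 enzyme genes. Its stronger summit, of signal 403 at rank 1417 (3L 8186659 to 8187016), lay 208 bp upstream of the outermost start. Replicates 3, 5 and 6 gave signals of 78.0, 104 and 211 there, at ranks 2332, 1838 and 1206, and relative signals of 1.24, 1.47 and 2.02 (1.58 ± 0.404, SD, n = 3). The other summit, of signal 199 at rank 3846 (3L 8185713 to 8186148), lay in an intron 261 bp upstream of the inner start. It had signals of 81.6, 30.1 and 81.9, so in replicate 3 it was the stronger of the pair, and in replicate 5 its rank of 10769 was outside the strongest 6633 regions.

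Ordered by the mean relative signal of the strongest summit, the genes ran Gapdh2, Eno, Pgk, Ldh and ERR. The means were 7.75, 6.54, 4.68, 4.63 and 1.58, so only Pgk and Ldh were nearly alike. Gapdh2 was above Eno in every replicate, but the ranges of their 3 values overlapped. Eno and Pgk changed order between replicates, with Pgk higher in replicate 3, and so did Pgk and Ldh. ERR at 1.24 to 2.02 lay under all values of the other 4 genes, the lowest of which was 3.64 at Ldh. Counting only genes with a summit within the strongest 6633 regions of all 3 replicates at once gave 5 of the 9, against 23.7% of protein-coding genes. They are the 5 genes with an IDR summit, which was itself derived from these replicates.

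**Figure D2:**
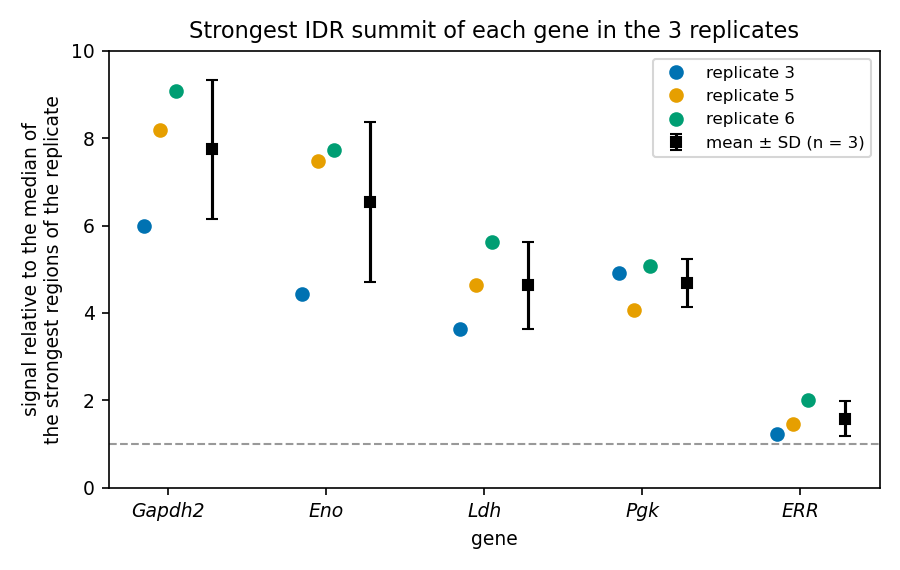
Relative signal (signal divided by the median of the strongest 6633 regions of the same replicate, no unit) at the strongest IDR summit of 5 genes. Coloured points are replicates 3, 5 and 6, black squares with bars are the mean and SD of the 3, and the dashed line marks 1. ERR lies at 1.24 to 2.02, and the lowest value of the other genes is 3.64 at Ldh.

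Of the 9 genes, 5 had an IDR summit within 1000 bp of a start, against 25.2% of protein-coding genes. The strongest such summit lay 164 bp upstream at Ldh, 165 at Gapdh2, 171 at Eno, 208 at ERR and 242 at Pgk. All were on the upstream side and between 150 and 250 bp from the start. Of the 3526 protein-coding genes with an IDR summit near a start, 18.0% had their strongest in this band, and of the 222 whose strongest had a signal over 1000, 24.8% had. The band was set after the positions were seen, so these shares only describe. Pgk is an exception in another sense, since its strongest summit overall is the intronic summit more than 1000 bp from any of its starts. The share of genes with more than 1 IDR summit was 3 of 9 (Pgk, Eno and ERR), against 11.1% of protein-coding genes. At Eno and ERR, 1 of the summits lay nearer the start of another gene, CG31937 and Atg18a. Among summits matched in the strongest regions of all 3 replicates, Pgk and Eno kept 2 each and ERR 1.

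**Figure D3:**
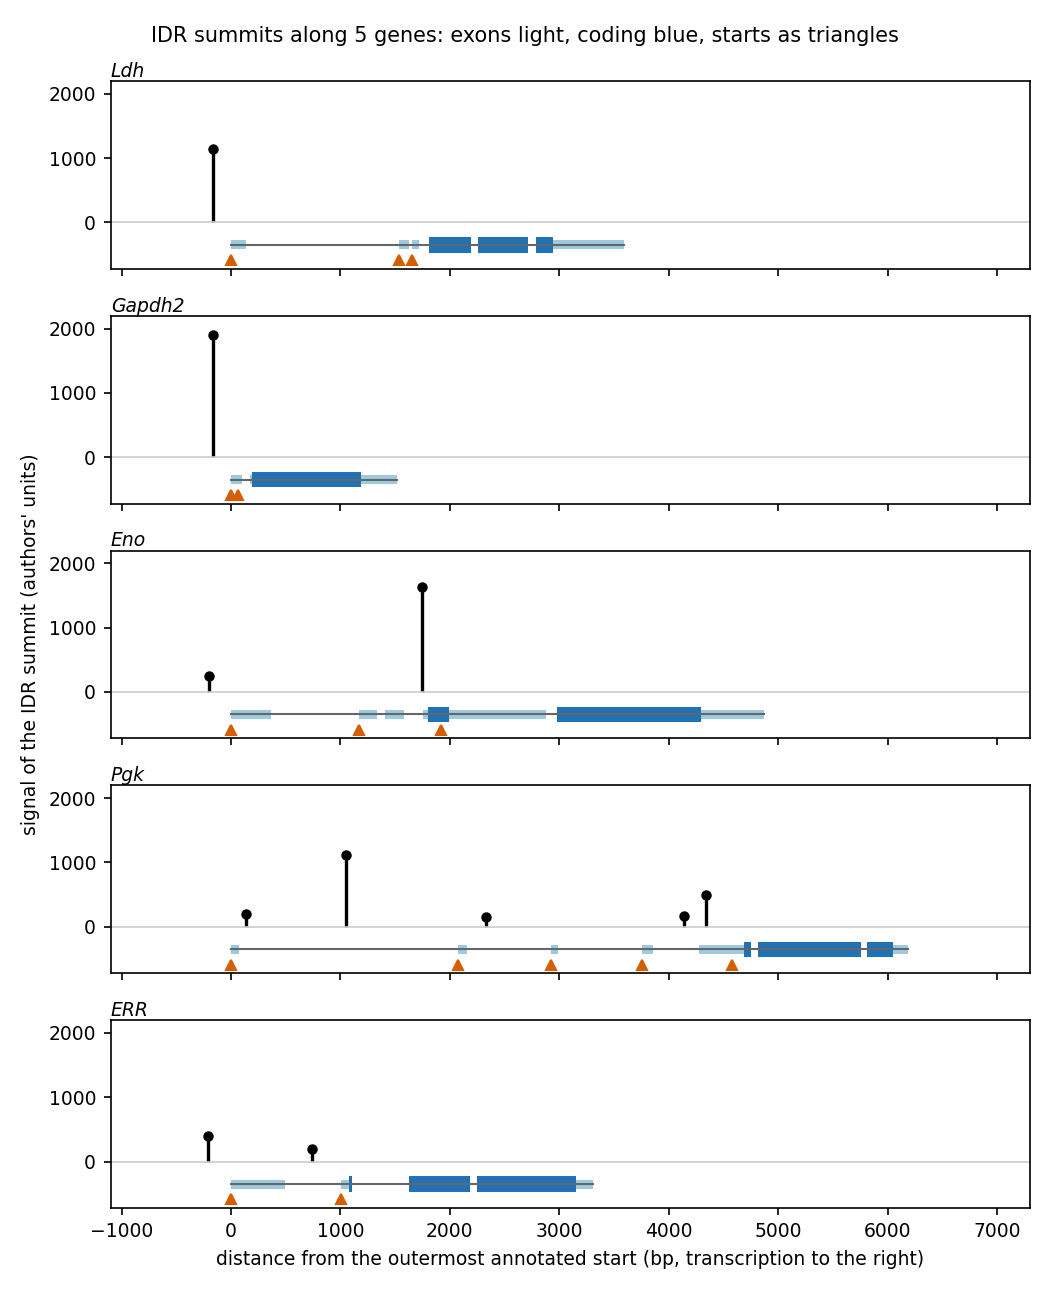
IDR summits along Ldh, Gapdh2, Eno, Pgk and ERR, each drawn 5′ to 3′ from its outermost annotated start, with distance in bp on the horizontal axis and the authors' signal as stem height. Light boxes are exons, dark boxes coding sequence and triangles annotated starts. The tallest stems of Ldh and Gapdh2 stand 164 and 165 bp before the outermost start, that of Eno 171 bp before an inner start and that of Pgk in an intron 1050 bp in.

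Other genes start near several of these summits, and which gene a peak belongs to cannot be told apart from position. The strongest Pgk summit lay 427 bp from the start of Bacc, on the other strand, closer than to any start of Pgk. The weaker Pgk summit near the outermost start was 129 bp from the start of Bacc and 139 bp from that of Pgk. The ERR summit of signal 403 lay 22 bp from the start of Atg18a, an autophagy gene, against 208 bp from that of ERR, and the intronic ERR summit lay 926 bp from it. The weaker Eno summit lay 50 bp from the start of CG31937. By contrast the strong Eno summit was 171 bp from an Eno start and 844 bp from that of Rrp40, an exosome subunit gene. Near the Ldh peak the other start was that of the noncoding RNA lncRNA:CR44522, at 541 bp, and no other gene started within 1000 bp of the Gapdh2 summit. With each summit given only to the protein-coding gene whose start was nearest, 5 of the 9 genes had a summit, against 21.6% of protein-coding genes. The strongest Pgk summit and that of signal 203 then went to Bacc, the ERR summit of signal 403 to Atg18a and the weaker Eno summit to CG31937, which left Pgk with 495 as its highest signal and ERR with 199.

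Pgi, Pfk and Gapdh1, none of which had an IDR summit, all lie on arm 2R. The share of protein-coding genes on that arm with an IDR summit was 31.0%, close to that of all genes.

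Letters known as binding sites were looked for on either strand within 100 bp of the 11 summits. The Smad box GTCT occurred in 7 of the 11 windows, with 1 copy at the strongest ERR summit and 4 at the intronic ERR summit, and it was in 54.4% of the windows of all 6633 IDR summits. GCCGNC, a GC-rich form bound by the Smad protein Mad, was in 2 of 11, at the strong Eno summit and at the Pgk summit near the outermost start, and in 14.6% of all windows. GAGAG, the GAGA factor type, was in 2 of 11 (the Pgk summit of signal 495 and the ERR summit of signal 403) and in 26.6% of all windows. ACGTG, the core of sites bound by hypoxia-inducible factors, was in 1 of 11, in the weakest Pgk summit, and in 13.5% of all windows. No window held AAGGTCA or TCAAGGTCA, the letters bound by ERR-type receptors, which were in 1.52% and 0.0603% of all windows (each match of the longer word is also a match of the shorter). None held the E-box CACGTG, which contains ACGTG (1.9%), the DNA replication-related element TATCGATA (2.25%), GGTCACACT, the core of the M1BP site (1.37%), or GTCTAGAC, a palindrome made of a pair of Smad boxes (0.136%).

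The whole pathway was read from a list of 23 genes that adds hexokinases, aldolases, phosphoglycerate mutases and the pyruvate kinase family. An IDR summit was found at 9 of them (39.1%) and at 5 of the 15 that are not among the 9 genes above (33.3%), both near the 31.5% of all protein-coding genes. A summit near a start was found at 8 of the 23, against 25.2% of all protein-coding genes. The strongest of the others was at Hex-A, hexokinase, which carries out the entry step, with a signal of 1194.3 at rank 146 and a summit 159 bp upstream. CG12229, of the pyruvate kinase family, had a signal of 896 at rank 304, with the summit downstream of the gene. PyK, pyruvate kinase, had 353 at rank 1703, 303 bp upstream of a start in an intron, and CG7362, of the same family, had 305 at rank 2135. Pglym78, phosphoglycerate mutase, was the remaining bound gene, with a signal of 187 at rank 4179.

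Along the pathway, the upper steps from hexokinase to triose-phosphate isomerase had 1 of 9 genes bound, Hex-A, and so 1 of 5 steps. The lower steps from glyceraldehyde-3-phosphate dehydrogenase to pyruvate kinase had 7 of 13 genes bound, and every one of the 5 steps had at least 1 bound gene. Ldh follows them. The share of all protein-coding genes was 31.5%, which is a share per gene and does not apply to steps. A step with more genes has more chances to be counted, and the lower steps held from 1 gene (enolase) to 6 (pyruvate kinase). The numbers of genes in each phase are small. Ald1, aldolase, had no more than a pooled candidate of signal 83.1 at rank 10437. The split at triose-phosphate isomerase was noticed after the values were seen, and it was not tested.

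**Figure D4:**
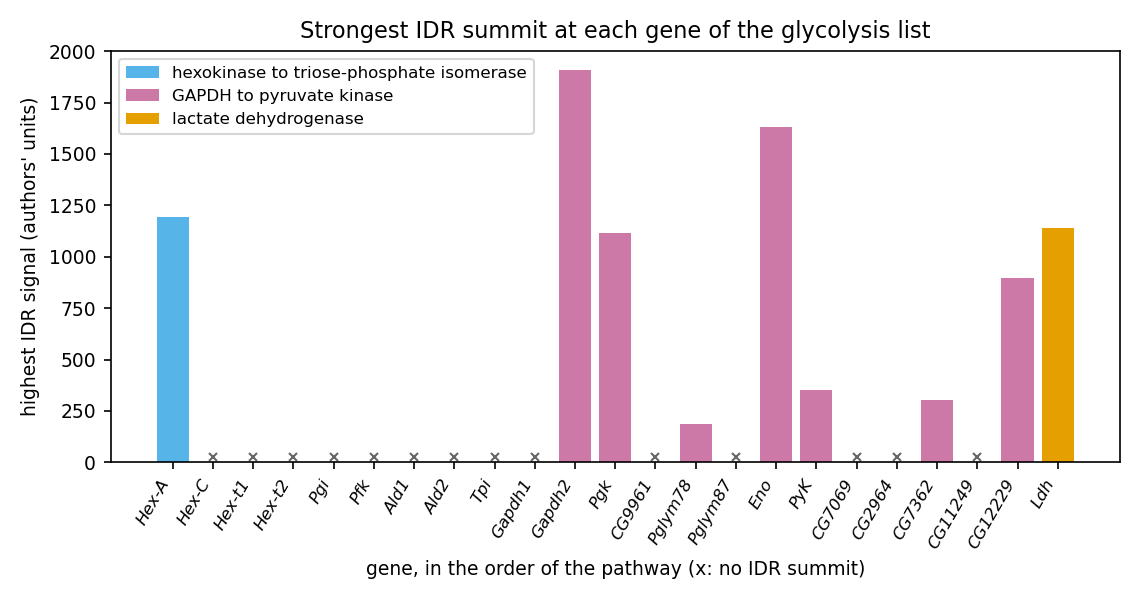
Highest IDR signal (authors' units, linear axis from 0) at each of the 23 genes of the glycolysis list in pathway order, coloured by phase, with a cross where a gene has no IDR summit. Of the upper phase Hex-A alone has a bar (1194.3), and Gapdh2 is the tallest (1906.8).

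Genes whose replicate ranks at start-proximal peaks were most like those of Ldh and of ERR were found by the distance of log10 ranks over the 3 replicates, among 3233 genes. For Ldh they were Mkk4 and SLIRP2, which had the same ranks (distance 0.0815; ranks 276, 210 and 154), and CG1907 (distance 0.0871; ranks 256, 157 and 168). For ERR the nearest was Atg18a, which shares its peak, then RhoGAP16F (distance 0.0212; ranks 2271, 1867 and 1161), with CG5554 and Snap29 next and equal (distance 0.0531). With 3 ranks from 1 group, such likeness says no more than that the peaks were of similar height.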

How the data were processed

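Peaks were deposited as narrowPeak lists on builds dm6 and dm3, per the deposited file listings: candidates of each replicate, candidates of all replicates pooled, and the list selected by IDR. The signal of a peak and the −log10 of its q-value are the authors' values, made against a control alignment. The −log10 q-value stood at 4.27 in all 11 summits described and in the strongest pooled candidates of Pgi, Pfk and Gapdh1. Those candidates are not in the IDR list, so this value does not set the bound genes apart. It was not used in ranking. Ranks were by signal alone, with ties left equal. Aligner, peak caller, IDR threshold and number of reads were not given in the sources used here, so depth is unknown and no interval that needs it is given. How animals were pooled is not given either, and the spread between replicates may be partly technical.

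Summits on dm6 were placed with the annotation of Ensembl release 115, and no peak ran past an arm of the reference. The 5 lists on dm3 were not used. A gene was called with a summit in its body or within 1000 bp, and a summit matched another within 150 bp. Named were the 9 genes with all IDR summits or their strongest pooled candidate, the up to 4 strongest genes of each list, protein-coding neighbours with a start within 1000 bp of a member's summit, and the 3 genes nearest in rank to Ldh and ERR. The remaining bound glycolysis gene, the noncoding neighbour of Ldh and Ald1 were added after their values were seen. Of 80 list names, 2 matched no gene and were left out, 3 matched through a synonym and 1 in other letter case. The genes and lists were chosen with earlier results of these data known. Counts are set beside the share of all genes, and with 1 group no test was made. Scripts ran in python 3.11.15 with numpy 2.4.6, pandas 2.3.3 and matplotlib 3.10.9, and were tested on simulated data.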

Additional observations from a re-analysis of the deposited data

How the results depend on the processing

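The same 5 of 9 genes had an IDR summit with windows of 500 bp (28.2% of all genes) and 2000 bp (37.4%), with any overlap of the interval (32.6%), near starts alone (25.2%), in the stronger 3317 peaks (19.8%) and without replicate 3, 5 or 6 in turn (25.9%, 24.0% and 24.7%), where the summits shared by the other replicates were used. Gene bodies alone, with no flank, kept 3 genes (14.3% of all genes) and 7 of the 11 summits, since the summits of Ldh and Gapdh2, the weaker Eno summit and the stronger ERR summit lie upstream, and gave 4 bound genes of the glycolysis list and 21 in the 6 related lists. The stronger 3317 peaks left 7 summits, as did the 3681 summits matched among the strongest 6633 regions of all 3 replicates. A window of 5000 bp gave 17 summits and added Pgi, with 50.8% of all genes then called. With all candidates in place of the strongest 6633, 8 of the 9 genes had a summit in every replicate, against 50.1% of all genes. Without each replicate in turn, the summits at the 9 genes numbered 8 to 9, the bound genes of the glycolysis list stayed at 9 and those of the related lists, 35 in all, numbered 26 to 29, while the share of all genes fell from 31.5% to the 3 values given above. Windows of 150 bp to either side of the summits gave GAGAG in 6 of 11 (38.8% of all windows), GTCT in 9 (70.5%), GCCGNC in 4 (25.1%) and ACGTG in 2 (20.7%), and windows of 50 bp gave GAGAG in 1 (12.9%) and GTCT in 6 (32.4%). The limit of 1000 on signal and the assignment to the nearest protein-coding start were chosen after seeing the data. No paired analysis was possible because the samples form 1 group. The number of reads is unknown, so a weak or missing peak cannot be told apart from shallow sequencing.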

Other observations

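Lists of related carbohydrate genes, with 55 genes in all, had an IDR summit at 35 (63.6%), against 31.5% of all protein-coding genes. The lists were chosen with earlier results of these data known, and no test was made. Bound genes were many among the TCA cycle enzymes, with 12 of 14. A summit near a start was found at 9 of the 14, against 25.2% of all protein-coding genes. The strongest SdhB summit lay downstream of the gene, 2233 bp from its nearest start, and that of kdn in an intron 1505 bp from one. The strongest there were Fum1, fumarase (signal 971, rank 249), Idh3g, a subunit of isocitrate dehydrogenase (signal 860, rank 335), SdhB, a subunit of succinate dehydrogenase (signal 446), and kdn, citrate synthase (signal 338). The glycerol and gluconeogenic branch had 6 of 8 bound, none of them over a signal of 345 at Pepck2, followed by PCB, pyruvate carboxylase (341), Men, malic enzyme (330), and fbp, fructose-1,6-bisphosphatase (310). The pyruvate entry list had 4 of 6, namely Pdp (321), Pdk (251), Pdhb (242) and Mpc1, a subunit of the mitochondrial pyruvate carrier (210).

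The regulators had 6 of 7, ERR among them, against 31.5% of all protein-coding genes. Near a start the count was also 6, against 25.2%. No share over genes of like length was made for these lists. The strongest was sima, the fly hypoxia-inducible factor, with 5 summits. Its highest signal was 888 at rank 314, in an intron 1602 bp from a start. Then came bigmax at 293 and Hph, the prolyl hydroxylase that acts on Sima, at 238, both under the 403 of ERR. Shares nearer the background were found for sugar entry, storage and trehalose genes, with 5 of 14 (35.7%), and for the pentose phosphate genes, with 2 of 6 (33.3%). Strong peaks occurred in these lists too. Glyp, glycogen phosphorylase, had a signal of 1076.9 at rank 197 with a summit 192 bp upstream, Pgm1 had 528, Treh, trehalase, had 413 and sut1 had 344. Zw, glucose-6-phosphate dehydrogenase, had 1609.0 at rank 69 with an intronic summit, and Pgd had 164.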
